A study of Mus musculus with 10 samples.

Results

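Kidney tubules handle acid and base with a set of proton pumps, bicarbonate and sodium-proton exchangers, carbonic anhydrases and ammonia channels, and 50 genes of this set were measured among 16475 genes. They were taken by gene symbol: every Atp6v0 and Atp6v1 gene, every Slc4a and Slc9a gene numbered with digits alone, every Car gene numbered with digits alone, and Slc26a4, Slc26a7, Rhcg, Rhbg and Foxi1. The rule uses gene names alone, but the set was picked with earlier results of these data known. They comprised 19 subunits of the vacuolar proton pump, 8 Slc4a and 4 Slc9a transporter genes, 14 carbonic anhydrase genes and the other 5. The sodium-proton exchanger gene Slc9a3 and the pump subunit genes Atp6v0c, Atp6v1g1 and Atp6v1g3 were not analysed here.

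The arrays came from renal cortex depleted of glomeruli, from mice of the BKS strain aged 24 weeks. The 5 db/db mice were diabetic and the 5 db/m mice were nondiabetic littermates. In db/db mice both copies of the leptin receptor gene Lepr carry the db mutation, as background, so diabetes comes together with obesity and a defect in leptin signalling that is not confined to the kidney. The labels give no further allele, sex or treatment, and no pooling. Each mouse gave 1 Affymetrix mouse genome array, read here as log2 levels, and precision is limited by having 5 arrays in each group. Mice are numbered in the labels, so replicates are taken as separate animals.

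In the cortex the proximal tubule reclaims most filtered bicarbonate. Sodium-proton exchangers and the proton pump acidify the lumen, carbonic anhydrases at the brush border and in the cytosol interconvert carbon dioxide and bicarbonate, and Slc4a4 returns bicarbonate to the blood. In the connecting tubule and collecting duct, intercalated cells set the final urine pH. Type A cells secrete protons through the pump and pass bicarbonate to the blood through Slc4a1, type B cells secrete bicarbonate through pendrin, the product of Slc26a4, and the Rh proteins carry ammonia. The same pump acidifies lysosomes and endosomes in every cell, with subunits that partly differ from those of intercalated cells.

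The proximal tubule markers Slc34a1, Lrp2, Cubn, Slc5a2, Slc5a12, Slc22a6, Hnf4a and Aqp1 all had bright levels, with db/m means between 11.49 and 13.76 on a log2 scale that ended at 14.5. Podocyte markers were still measured, with db/m means between 7.56 and 10.74 for 4 genes, and averaged 0.10 above db/m in db/db 1 and 0.46 to 0.57 above it in db/db 2 to 5. Array medians lay between 8.46 and 8.66. The array of db/db 1 stood apart, with Pearson r of 0.938 to 0.962 across genes with the other 9 arrays, which correlated with each other at 0.985 or more. In it the 5 tubular injury markers averaged 5.82 log2 units above the db/m mean, the 4 neutrophil markers 5.14 and the 7 macrophage markers 2.89 above it. In db/db 2 these lists stood at 1.88, 2.06 and 0.77. The neutrophil list was also high in db/db 3, at 2.21, and the macrophage list lay between -0.99 and -0.56 in db/db 3 to 5. In db/m mice the injury list ran from -0.43 to 0.93, the neutrophil list from -0.57 to 0.41 and the macrophage list from -0.081 to 0.12. Each comparison is therefore given with all 10 arrays and again without db/db 1.

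With all 10 arrays, 3 of the 50 genes fell in db/db mice and 0 rose at a Benjamini-Hochberg adjusted p under 0.05 by limma. The sodium-proton exchanger gene Slc9a8, the pump subunit gene Atp6v0a2 and the carbonic anhydrase gene Car1 were lower. Over all 16475 genes 3.54% were called lower and 2.96% higher, so 3 of 50, or 6%, stood beside 3.54%. At an unadjusted p under 0.05, 6 genes, or 12%, were lower beside 12.1% of all genes, and 2, or 4%, were higher beside 9.43%. Without db/db 1, 7 of the 50 rose, or 14% beside 6.84% of all genes, and 4 fell, or 8% beside 5.93%. At an unadjusted p under 0.05, 14 were then higher, or 28% beside 13.6%, and 6 lower, or 12% beside 12.9%. The 7 that rose were Slc4a1, Rhbg, Rhcg, Car7, Car8, Car14 and Car15, and the 4 that fell were Slc9a8, Atp6v0a2, Car1 and Car4. With the arrays centred on their medians Car8, Car15 and Rhcg lost this call and Atp6v1g2 gained one, so that 4 were higher and 5 lower. The median change of the 50 genes was 0.025, or 0.10 without db/db 1, beside -0.033 and -0.0059 for all genes.

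Groups that did not overlap gave a similar count. All db/db values lay below all db/m values for 4 genes, Slc9a8, Atp6v0a2, Car1 and Car4, beside 5.85% of all genes, and above them for 0, beside 4.35%. With db/db 1 left out the same 4 lay below, beside 7.61%, and 5 lay above, beside 7.76%, which were Slc4a1, Rhbg, Car7, Car14 and Car15.

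**Figure D1:**
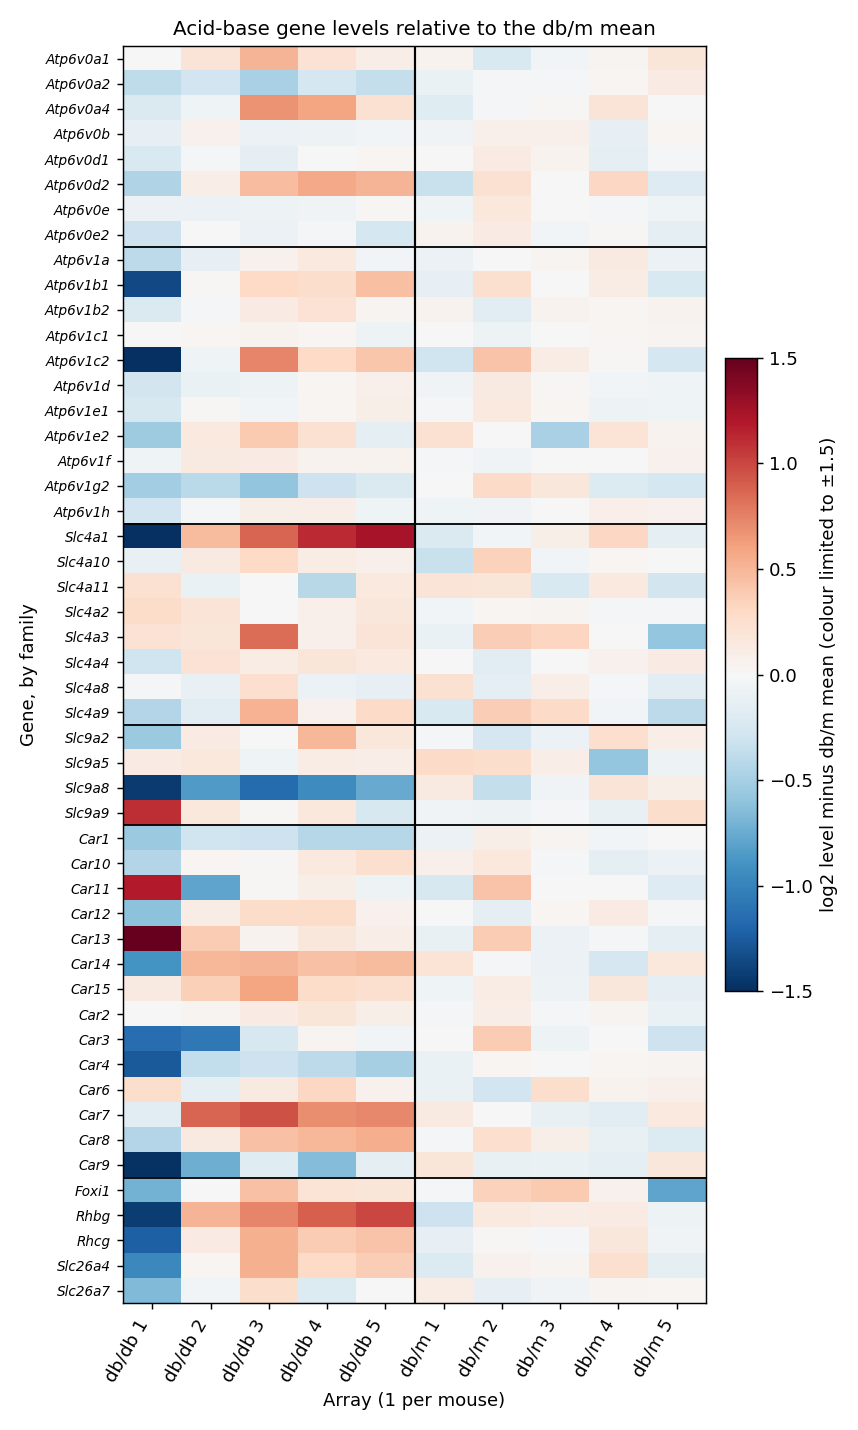
Log2 level of each of the 50 genes (rows, by family) in each array (columns), minus the mean of the 5 db/m arrays, with the colour limited to ±1.5. Slc9a8 is blue in all 5 db/db arrays, and the column of db/db 1 is blue for most collecting duct genes. Of these, Slc4a1 and Rhbg are red in db/db 2 to 5, whereas others, such as Foxi1 and Slc26a4, are close to the db/m mean in db/db 2.

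A gene that missed the threshold is not thereby shown to be alike in the groups. The intervals in the plot of changes by gene give the sizes that the data leave possible. RNA came from whole tissue, so fewer cells of a type and less RNA per cell cannot be told apart.

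**Figure D2:**
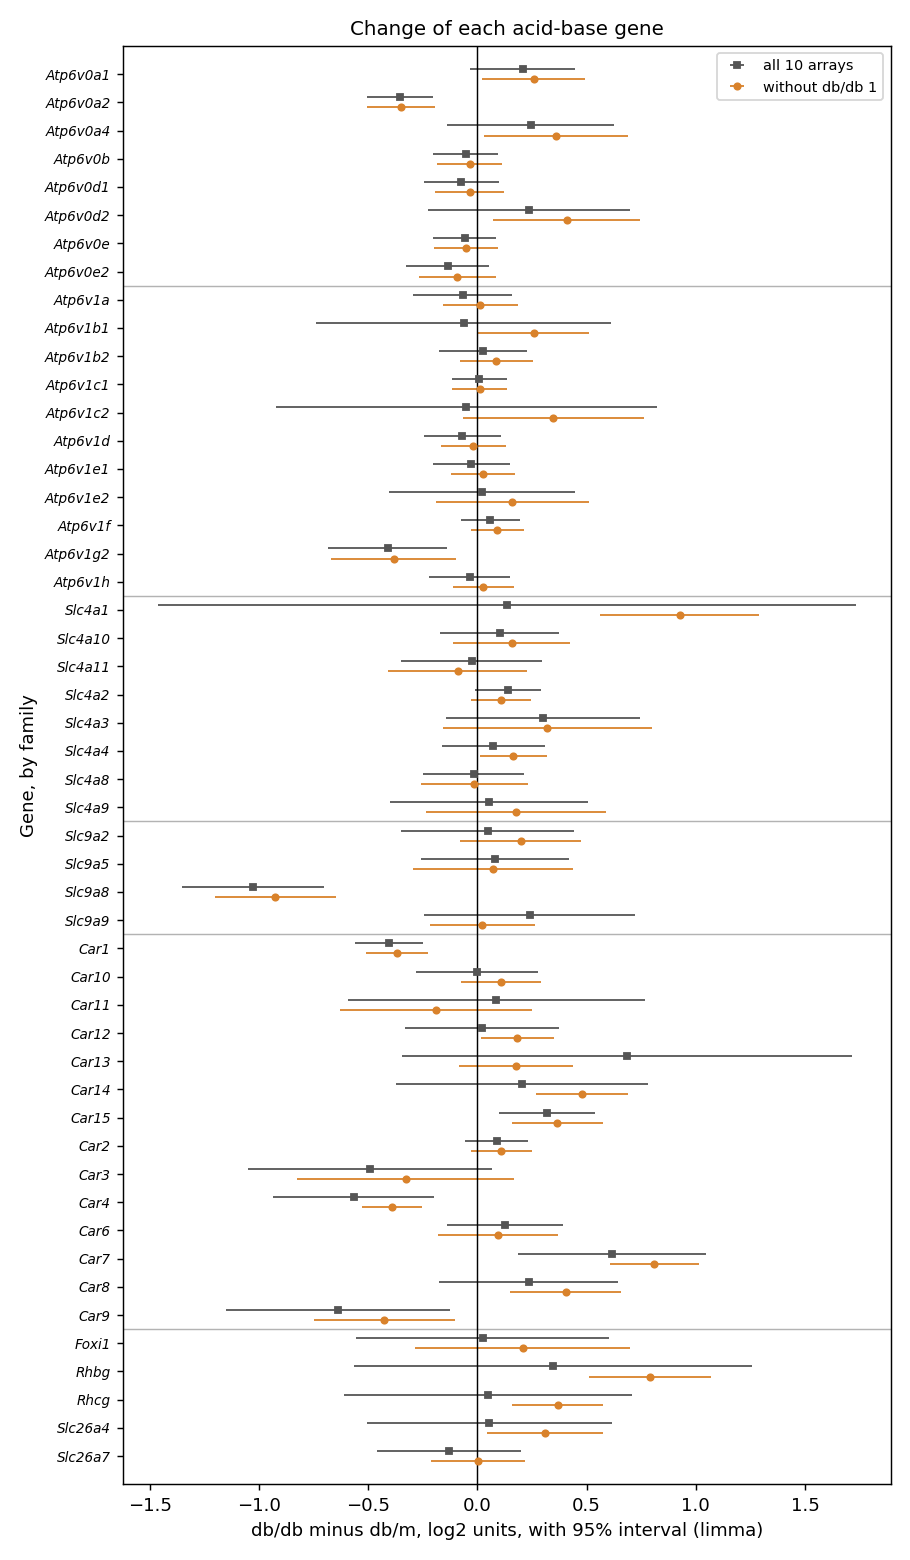
Change of each of the 50 genes, db/db minus db/m, in log2 units with 95% intervals from limma, for all 10 arrays (grey squares) and without db/db 1 (orange circles). Slc9a8 lies near -1 in both fits, most pump subunits lie near 0 with narrow intervals, and Slc4a1 has the widest interval with all arrays, from -1.46 to 1.73.

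The vacuolar proton pump is built from a membrane sector, V0, which carries protons, and a cytosolic sector, V1, which splits ATP. Of its 19 measured subunit genes 1 fell and 0 rose, with all arrays and without db/db 1. Over all genes 3.54% were called lower and 2.96% higher with all arrays, and 5.93% and 6.84% without db/db 1. The gene that fell was Atp6v0a2 (Entrez 21871), which encodes the a2 subunit known from Golgi and endosomal pumps. Its levels in db/db mice 1 to 5 were 9.66, 9.75, 9.56, 9.78 and 9.68, against 9.94, 10.02, 10.01, 10.07 and 10.16 in db/m mice 1 to 5. All 5 db/db values lay below all 5 db/m values, and db/db 1 lay within the range of the other db/db mice. The change was -0.36 ± 0.068 (SE, n = 5 mice per group, limma adjusted p = 0.0152), a 1.28-fold fall, and -0.35 ± 0.070 without db/db 1 (adjusted p = 0.0108). The call held in each of the 10 fits that left out 1 array, with limma adjusted p up to 0.044.

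The brightest pump subunit genes were close to level. They were picked by level, so they do not stand for the whole housekeeping pump. Below the cut lay, among others, Atp6v0a2, which fell, and Atp6v0a1. Atp6v0a1 had a change of 0.21, or 0.26 without db/db 1 (limma adjusted p = 0.306 and 0.149). For the 11 subunit genes with a mean level above 11, Atp6v0b, Atp6v0d1, Atp6v0e, Atp6v0e2, Atp6v1a, Atp6v1b2, Atp6v1c1, Atp6v1d, Atp6v1e1, Atp6v1f and Atp6v1h, changes lay between -0.14 and 0.060, or between -0.092 and 0.091 without db/db 1. Their 95% intervals together spanned -0.33 to 0.23 with all arrays and -0.27 to 0.26 without db/db 1. None of the 11 had an unadjusted p under 0.05 by limma. Atp6v1a, the catalytic A subunit, averaged 12.50 ± 0.21 in db/db and 12.56 ± 0.091 in db/m (SD, n = 5 each). Atp6v1c1, which joins the sectors, averaged 12.31 ± 0.049 in db/db and 12.30 ± 0.047 in db/m.

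The 4 subunits enriched in intercalated cells, Atp6v1b1, Atp6v0a4, Atp6v0d2 and Atp6v1c2, varied between mice in both groups. Their mean relative to db/m was -0.92 in db/db 1, -0.0013 to 0.54 in db/db 2 to 5 and -0.24 to 0.22 in db/m. Atp6v1b1 encodes the B1 subunit, whose human gene is mutated in distal renal tubular acidosis with deafness. It read 9.08 in db/db 1 and 10.45, 10.72, 10.69 and 10.87 in db/db 2 to 5, against 10.30, 10.67, 10.43, 10.53 and 10.20 in db/m mice 1 to 5. The groups overlapped, and db/db 1 lay 1.35 below the db/m mean. The change was -0.063 with all arrays (95% interval -0.74 to 0.61, limma adjusted p = 0.928) and 0.26 without db/db 1 (adjusted p = 0.184). Atp6v0a4, another gene of distal renal tubular acidosis, had a change of 0.24, or 0.36 without db/db 1 (limma adjusted p = 0.15). Atp6v0d2 had 0.24 and 0.41 (adjusted p = 0.112 without db/db 1), and Atp6v1c2 had -0.050 and 0.35 (adjusted p = 0.271 without db/db 1). In the fit without db/db 1, array weights brought Atp6v0a4 and Atp6v0d2 past the threshold. Atp6v0a4 also passed when db/db 2 was left out as well. All 4 subunits were at their lowest of the 10 arrays in db/db 1, as were 41.6% of all genes. With that mouse left out, 3 of the 4 were higher at an unadjusted p under 0.05 by limma, beside 13.6% of all genes. The neuronal-type subunit gene Atp6v1g2 was the largest change of the V1 genes, at -0.41 ± 0.12 (limma adjusted p = 0.0756). It was past the threshold with arrays centred on their medians, with repeated quantile normalization and with array weights. This held with all arrays and without db/db 1.

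The promoters of 4 genes are shown to set genes of unlike behaviour side by side: Atp6v1b1 as an intercalated cell subunit, Atp6v1a as a housekeeping one, Rhcg as a collecting duct ammonia channel, and Slc9a8 as the largest fall. Each is the 250 bases before the annotated start, 5′ to 3′ on the gene's strand, from RefSeq on GRCm38.p6. Capitals mark TGTTTAC, a sequence that forkhead factors such as FOXI1 bind, in Atp6v1b1, and TCACGTGA, the E-box type bound by TFEB and its relatives, in Atp6v1a.
Atp6v1b1, chr6:83742767-83743016, plus strand: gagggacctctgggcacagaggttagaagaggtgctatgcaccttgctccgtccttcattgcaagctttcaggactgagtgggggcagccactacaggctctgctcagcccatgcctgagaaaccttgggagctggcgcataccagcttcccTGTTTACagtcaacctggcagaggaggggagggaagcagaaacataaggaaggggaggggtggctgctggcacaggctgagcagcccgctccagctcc
Atp6v1a, chr16:44139260-44139509, minus strand: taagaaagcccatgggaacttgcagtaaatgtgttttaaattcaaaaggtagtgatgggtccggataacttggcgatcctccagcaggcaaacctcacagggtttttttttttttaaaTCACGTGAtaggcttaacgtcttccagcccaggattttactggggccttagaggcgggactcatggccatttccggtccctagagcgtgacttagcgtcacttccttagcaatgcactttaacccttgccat
Rhcg, chr7:79617658-79617907, minus strand: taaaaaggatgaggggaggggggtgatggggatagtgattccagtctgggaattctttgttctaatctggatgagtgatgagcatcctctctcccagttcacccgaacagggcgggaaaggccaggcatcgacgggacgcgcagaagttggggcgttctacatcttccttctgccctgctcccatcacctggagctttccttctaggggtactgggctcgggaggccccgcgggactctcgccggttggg
Slc9a8, chr2:167421460-167421709, plus strand: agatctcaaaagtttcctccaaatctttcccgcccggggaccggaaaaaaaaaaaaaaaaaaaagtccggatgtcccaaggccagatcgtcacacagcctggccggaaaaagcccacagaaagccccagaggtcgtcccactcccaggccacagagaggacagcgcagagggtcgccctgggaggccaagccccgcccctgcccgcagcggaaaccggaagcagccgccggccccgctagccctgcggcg
TGTTTAC was searched on both strands, and its match in Atp6v1b1 begins 98 bases before the start. TCACGTGA reads the same on both strands, overlaps the core CACGTG, and begins 132 bases before the start of Atp6v1a. Of 32851 promoter windows of this length 3.17% held TGTTTAC and 0.785% held TCACGTGA. Of 42 windows that matched 34 of the 50 genes, 1 held each of them. CACGTG alone was in 6.02% of all windows and in 3 of the 42, those of Atp6v0b, Atp6v1a and Car6. Neither longer motif was found in the Rhcg and Slc9a8 windows, which says only that these letters are not there.

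The Slc4a family moves bicarbonate, most members in exchange for chloride or together with sodium. With all arrays 0 of 8 genes passed the threshold, and 0 had an unadjusted p under 0.05 by limma. Without db/db 1, 1 of the 8 rose, beside 6.84% of all genes. It was Slc4a1 (Entrez 20533), the anion exchanger AE1 of type A intercalated cells and red cells. Slc4a1 read 6.51 in db/db 1 and 10.02, 10.42, 10.66 and 10.79 in db/db 2 to 5, against 9.33, 9.50, 9.64, 9.86 and 9.40 in db/m mice 1 to 5. The values of db/db 2 to 5 lay above every db/m value, whereas db/db 1 lay 3.03 below the db/m mean, the lowest of all arrays. The change among the other 9 mice was 0.93 ± 0.16 (SE, 4 db/db and 5 db/m mice, limma adjusted p = 0.00589), a 1.9-fold rise. With all arrays it was 0.13 ± 0.72 (adjusted p = 0.935).

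Since Slc4a1 is also a red cell gene, erythroid markers are given beside it. Of 8 listed, 6 were measured, and their mean relative to db/m was -0.18 in db/db 1, between -0.054 and 0.12 in db/db 2 to 5, and between -0.057 and 0.091 in db/m. Rhag and Hemgn were dim, with db/m means of 2.99 and 3.30. Of these 6 genes Klf1 rose without db/db 1 (0.70, limma adjusted p = 0.0173) and, like Slc4a1, was lowest in db/db 1, at 7.66, with 9.44 to 10.02 in db/db 2 to 5 and 8.68 to 9.29 in db/m, and the others, Alas2, Hemgn, Epb42, Rhag and Ermap, did not pass in either fit. Their part in the Slc4a1 result was not tested.

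The other Slc4a genes did not pass. Slc4a4, the sodium-bicarbonate cotransporter NBCe1 of the proximal tubule, read 12.52 in db/db 1 and 12.92 to 13.03 in db/db 2 to 5, against 12.65 to 12.93 in db/m. Its change was 0.074 (95% interval -0.16 to 0.31), or 0.17 without db/db 1 (0.012 to 0.32, limma adjusted p = 0.158). Slc4a9, an exchanger of type B intercalated cells, averaged 11.13 ± 0.37 in db/db and 11.08 ± 0.33 in db/m (SD, n = 5 each). Slc4a3, the anion exchanger AE3, was the largest change of the family with all arrays, at 0.30 ± 0.20 (limma adjusted p = 0.429), and db/db 3 at 8.55 stood above the other db/db mice. The widespread exchanger gene Slc4a2 was tight, at 11.88 ± 0.11 in db/db and 11.74 ± 0.035 in db/m, with a change of 0.14 (adjusted p = 0.265). Slc4a8, Slc4a10 and Slc4a11 had changes between -0.026 and 0.10.

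Among the sodium-proton exchangers, Slc9a8 gave the largest change of all 50 genes with all arrays. Slc9a8 (Entrez 77031) encodes NHE8, found at the brush border and in internal membranes of proximal tubule cells. It read 8.57, 9.16, 8.86, 9.07 and 9.26 in db/db mice 1 to 5, against 10.14, 9.65, 9.95, 10.21 and 10.09 in db/m mice 1 to 5. All 5 db/db mice lay below all 5 db/m mice, with a gap between 9.26 in the highest db/db mouse and 9.65 in the lowest db/m mouse. The change was -1.03 ± 0.15 (SE, n = 5 mice per group, 95% interval -1.35 to -0.70, limma adjusted p = 0.00424), a 2.04-fold fall. Leaving out db/db 1 gave -0.93 ± 0.12 (adjusted p = 0.00167). Across the 10 fits that left out 1 array the change ran from -1.12 to -0.93, with limma adjusted p up to 0.0156.

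The 3 other Slc9a genes did not pass in either fit. Slc9a2, an exchanger of epithelial cell membranes, had a change of 0.047 (95% interval -0.35 to 0.44) and Slc9a5 of 0.081 (-0.26 to 0.42). Slc9a9, an endosomal exchanger, had 0.24, or 0.023 without db/db 1, which at 6.95 was the highest of the 10 arrays. The proximal tubule markers listed above were not called in either fit, at -0.54 on average in db/db 1, 0.014 to 0.075 in db/db 2 to 5 and -0.12 to 0.055 in db/m. These markers went both ways. Hnf4a was at -0.30 with all arrays and -0.21 without db/db 1. With all arrays it was the 1 marker of 8 at an unadjusted p under 0.05 by limma. Without db/db 1, 3 of 8 were higher at that p, beside 13.6% of all genes, and 0 lower, beside 12.9%. These 3 were Cubn (0.29), Slc5a12 (0.19) and Slc5a2 (0.17). The part of proximal tubule cells in the Slc9a8 result was not tested.

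Carbonic anhydrases changed in both directions. Of 14 genes 1 fell and 0 rose with all arrays, beside 3.54% and 2.96% of all genes. At an unadjusted p under 0.05 by limma 3 were lower and 2 higher, beside 12.1% and 9.43%. Without db/db 1, 4 rose and 2 fell, beside 6.84% and 5.93%. Car4 (Entrez 12351), the membrane-anchored enzyme of the proximal brush border, read 11.78, 12.68, 12.73, 12.65 and 12.55 in db/db mice 1 to 5, against 12.94, 13.08, 13.05, 13.07 and 13.08 in db/m mice 1 to 5. Every db/db mouse lay below every db/m mouse. With all arrays the change was -0.57 ± 0.17 (SE, limma adjusted p = 0.0732), and without db/db 1, in which it was lowest, it was -0.39 ± 0.061 (adjusted p = 0.00358), a 1.31-fold fall. The 5 db/m values spanned little, from 12.94 to 13.08.

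Car14 (Entrez 23831), another membrane-bound enzyme of the proximal tubule, went the other way in 4 mice. It read 11.66 in db/db 1 and 13.04, 13.06, 12.98 and 13.02 in db/db 2 to 5, against 12.75, 12.53, 12.46, 12.29 and 12.70 in db/m mice 1 to 5. The values of db/db 2 to 5 lay above all db/m values and db/db 1 below them. Its change in the fit of 9 arrays was 0.48 ± 0.095 (limma adjusted p = 0.0103), a 1.39-fold rise, and with all arrays 0.20 ± 0.26 (adjusted p = 0.694). Car15 (Entrez 80733), a membrane-linked enzyme that mice keep and humans have lost, read 12.38 to 12.84 in db/db mice, against 12.12 to 12.42 in db/m mice. Only db/db 1 lay within the db/m range. The change was 0.32 ± 0.099 (limma adjusted p = 0.0864), or 0.37 ± 0.094 without db/db 1 (adjusted p = 0.0317). That call held in 3 of the 9 fits that left out a further array, the highest limma adjusted p being 0.079 when db/m 3 was left out.

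Car7 (Entrez 12354), a cytosolic isoform known mainly from brain and muscle, had the largest rise of the carbonic anhydrases without db/db 1. It read 6.46 in db/db 1 and 7.49, 7.58, 7.33 and 7.34 in db/db 2 to 5, against 6.76, 6.62, 6.51, 6.45 and 6.77 in db/m mice 1 to 5. Here too db/db 1 alone lay within the db/m range. The change without it was 0.81 ± 0.091 (limma adjusted p = 0.000725), a 1.75-fold rise, and 0.62 ± 0.19 with all arrays (adjusted p = 0.0914). With 9 arrays the calls for Car4, Car7 and Car14 held in each of the 9 fits that left out a further array.

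The remaining called enzymes were dim. Car1 (Entrez 12346), the red cell and colon isoform, read 3.93, 4.19, 4.17, 4.06 and 4.05 in db/db mice 1 to 5, against 4.39, 4.58, 4.53, 4.44 and 4.48 in db/m mice 1 to 5. The groups did not overlap, and the change was -0.40 ± 0.071 (limma adjusted p = 0.0104), but the mean level lay in the lowest 11% of all genes. No detection calls were used here, so how much of so dim a level is signal was not tested. Car8 (Entrez 12319), a related protein without enzyme activity, read 4.18 in db/db 1, 4.76 to 5.17 in db/db 2 to 5 and 4.42 to 4.88 in db/m. It passed only without db/db 1 (0.40 ± 0.11, limma adjusted p = 0.0448) and kept the call in 2 of 9 further fits, the highest adjusted p being 0.112 when db/db 4 was left out.

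**Figure D3:**
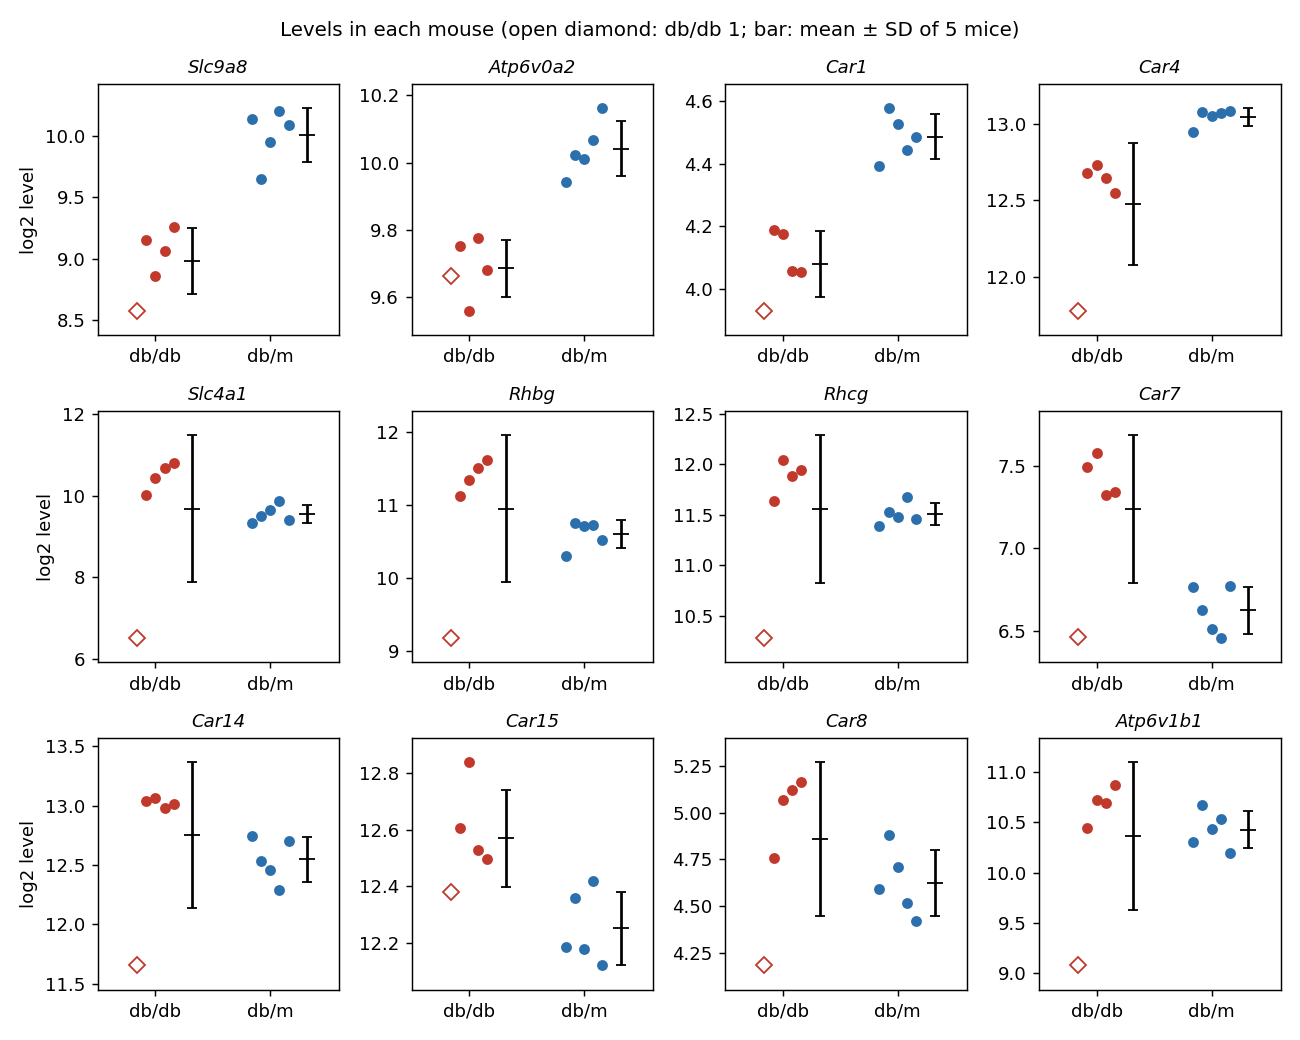
Log2 level of 12 genes in each mouse, db/db (red, db/db 1 as an open diamond) left of db/m (blue), with the mean and SD of the 5 mice of each group. The groups of Slc9a8, Atp6v0a2, Car1 and Car4 do not overlap, whereas Slc4a1, Rhbg and Car14 are above db/m in db/db 2 to 5 and below it in db/db 1.

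Among the carbonic anhydrases that did not pass, Car2, the cytosolic enzyme of proximal and intercalated cells, whose loss in humans causes renal tubular acidosis with osteopetrosis, read 13.67 to 13.85 in db/db mice, against 13.57 to 13.77 in db/m mice. Its change was 0.088 (95% interval -0.056 to 0.23, limma adjusted p = 0.481). Car12, a basolateral membrane enzyme, read 12.06 in db/db 1 and 12.74 to 12.95 in db/db 2 to 5, against 12.54 to 12.80 in db/m, with a change of 0.18 without db/db 1 (adjusted p = 0.154). Car13, a cytosolic isoform, had the largest change of the family with all arrays, 0.68 ± 0.46 (limma adjusted p = 0.438), which came to 0.18 without db/db 1. It read 8.95 in db/db 1 and 6.29 to 6.62 in db/db 2 to 5, against 6.08 to 6.61 in db/m. Car9, a hypoxia-induced enzyme, had -0.64 ± 0.23 (adjusted p = 0.14) and -0.43 without db/db 1 (adjusted p = 0.0866). Array weights brought Car9 past the threshold with all arrays and without db/db 1. Car3, Car6, Car10 and Car11 did not pass in either fit, with changes from -0.49 to 0.13.

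Of the 5 collecting duct genes 0 passed with all arrays and 0 had an unadjusted p under 0.05 by limma. Without db/db 1, 2 rose, beside 6.84% of all genes. Rhbg (Entrez 58176), the basolateral ammonia channel, read 9.18 in db/db 1 and 11.11, 11.33, 11.50 and 11.60 in db/db 2 to 5, against 10.29, 10.75, 10.71, 10.72 and 10.52 in db/m mice 1 to 5. The values of db/db 2 to 5 lay above every db/m value and db/db 1 below every one. The change without that mouse was 0.79 ± 0.12 (limma adjusted p = 0.00377), a 1.73-fold rise, against 0.35 ± 0.41 with all arrays (adjusted p = 0.672). Rhcg (Entrez 56315), the apical and basolateral channel, read 10.28 in db/db 1 and 11.64, 12.05, 11.89 and 11.94 in db/db 2 to 5, against 11.39, 11.53, 11.48, 11.68 and 11.46 in db/m mice 1 to 5. The values of db/db 2 and db/m 4 overlapped. Its change without db/db 1 was 0.37 ± 0.093 (limma adjusted p = 0.0306), and this call held in 3 of the 9 further fits, the highest adjusted p being 0.0801 when db/db 3 was left out.

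Slc26a4, which encodes pendrin, read 11.21 in db/db 1 and 12.20 to 12.71 in db/db 2 to 5, against 11.97 to 12.41 in db/m. Its change was 0.054 with all arrays and 0.31 without db/db 1 (limma adjusted p = 0.128). Slc26a4 passed the threshold when db/db 2 was left out as well as db/db 1. Slc26a7, a basolateral anion exchanger of type A cells, was dim at 4.68 ± 0.34 in db/db and 4.81 ± 0.091 in db/m (SD, n = 5 each). Foxi1, the forkhead factor that intercalated cells need to form, read 8.999 in db/db 1 and 9.71 to 10.15 in db/db 2 to 5, against 8.92 to 10.10 in db/m. The lowest Foxi1 value was thus in db/m 5 and not in db/db 1, and the change was 0.025 (95% interval -0.55 to 0.60) with all arrays.

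In db/db 1, 31 of the 50 genes had their lowest value of the 10 arrays, or 62% beside 41.6% of all genes, and 5 had their highest, or 10% beside 19.9%. Of 11 genes typical of intercalated cells, Foxi1, Slc4a1, Slc4a9, Slc26a4, Slc26a7, Rhcg, Rhbg, Atp6v1b1, Atp6v0a4, Atp6v0d2 and Atp6v1c2, 10 were lowest in db/db 1. Their mean stood at -1.10 relative to db/m in db/db 1, at 0.086 to 0.55 in db/db 2 to 5 and at -0.21 to 0.15 in db/m. All 11 changes were above 0 without db/db 1, with a median of 0.35. The smallest, 0.0023 for the dim Slc26a7, turned negative with median centring and with array weights. By limma 3 of the 11 passed the threshold, Slc4a1, Rhbg and Rhcg, beside 6.84% of all genes. Of these Rhcg kept its call in 3 of 9 further fits and lost it with centring. With 1 mouse there is no test of db/db 1 by itself.

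The 10 intercalated cell markers outside the 50 genes were mixed in db/db 1. Insrr, Oxgr1, Hepacam2, Hmx2 and Tmem61 were at their lowest of the 10 arrays there, between -1.86 and -0.69 relative to the db/m mean. Aqp6, Spink8, Kit and Tmem213 lay above the db/m mean there, by 0.27, 0.15, 0.13 and 0.086. The 10 averaged -0.67 in db/db 1, 0.29 to 0.74 in db/db 2 to 5 and -0.26 to 0.23 in db/m. Aqp6, a water channel of intracellular vesicles, rose by 1.02 ± 0.19 with all arrays (limma adjusted p = 0.014), Spink8 by 0.61 ± 0.13 (adjusted p = 0.0228) and Tmem213 by 0.33 ± 0.082 (adjusted p = 0.0415). With db/db 1 left out, Dmrt2 (1.11, adjusted p = 0.0262) and Oxgr1 (0.66, adjusted p = 0.0185) rose as well, so 5 of 10 rose and 0 fell, beside 6.84% and 5.93% of all genes. With all arrays Insrr and Hmx2 had changes of -0.32 and -0.29, neither past the threshold by limma.

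Other tubule lists were also low in db/db 1. The 8 principal cell markers averaged -0.66 in db/db 1, 0.28 to 0.45 in db/db 2 to 5 and -0.11 to 0.15 in db/m. Without db/db 1, 4 of them rose, beside 6.84% of all genes. In that fit 6 of the 8 changes were above 0, and Fxyd4 (-0.093) and Elf5 (-0.076) were below it. With all arrays 4 of the 8 were above 0, and 0 passed the threshold. The 4 distal convoluted tubule markers averaged -1.54 in db/db 1, 0.27 to 0.53 in db/db 2 to 5 and -0.20 to 0.14 in db/m. All 4 rose without db/db 1, beside the same 6.84%. The 5 thick ascending limb markers averaged -1.10 in db/db 1, -0.12 to 0.14 in db/db 2 to 5 and -0.15 to 0.19 in db/m, with 0 called in either fit and 0 at an unadjusted p under 0.05. The 11 bright pump subunits were also low in db/db 1, but by less. They averaged -0.20 in db/db 1, -0.016 to 0.040 in db/db 2 to 5 and -0.024 to 0.037 in db/m. Of the 11, 9 had their lowest value of the 10 arrays in db/db 1, beside 41.6% of all genes. The part of these cell types in the changes of Slc4a1, Rhbg and Rhcg was not tested.

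**Figure D4:**
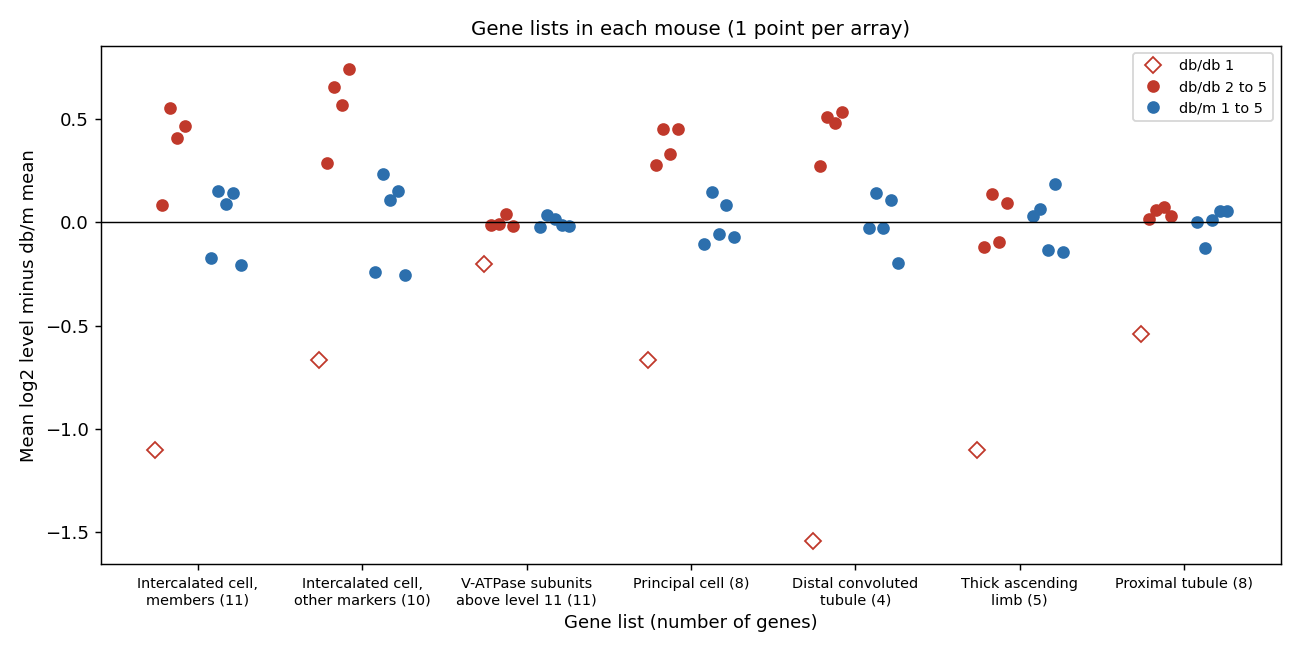
Mean log2 level of 7 gene lists in each mouse, minus the db/m mean, for db/db (red, db/db 1 as an open diamond) left of db/m (blue). Principal cell, distal convoluted tubule and the other intercalated cell markers lie above all db/m mice in db/db 2 to 5, the 11 intercalated cell genes do so in db/db 3 to 5 and reach 0.086 in db/db 2, and every list is at its lowest in db/db 1, the bright pump subunits by the least (-0.20).

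Genes that work with the pump and the exchangers were counted from lists. Over all genes 2.96% rose and 3.54% fell with all arrays, and 6.84% and 5.93% without db/db 1. Of 10 accessory and assembly genes of the pump 0 passed in either fit, with 1 at an unadjusted p under 0.05 with all arrays and 2 without db/db 1, and their mean relative to db/m was 0.015 in db/db 1. Of 16 lysosomal genes 1 rose with all arrays, Hexa, a subunit of hexosaminidase (0.54 ± 0.11, limma adjusted p = 0.0165), and Gla, which encodes alpha-galactosidase, joined it without db/db 1 (0.31, adjusted p = 0.0224). Of 23 other acid-base genes Adgrf5, a receptor that restrains proton secretion by type A cells in mice, rose by 0.64 ± 0.13 with all arrays (adjusted p = 0.0199). With 9 arrays Atp4a, a subunit of the proton-potassium pump, rose by 1.02 (adjusted p = 0.00142), and the kinase genes Stk39 and Wnk4 by 0.56 and 0.26 (adjusted p = 0.0226 and 0.0266).

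Ammonia made from glutamine in the proximal tubule carries acid into the urine. The list kept for it, with 7 measured genes, was wider than this route and included Glul and Aqp8. Of the 7 genes 0 passed with all arrays by limma, with 2 at an unadjusted p under 0.05. Without db/db 1, 3 rose, beside 6.84% of all genes. These were the glutamine transporter gene Slc38a3 (1.28 ± 0.24, adjusted p = 0.00792), the amino acid transporter gene Slc7a8 (0.68 ± 0.093, adjusted p = 0.00187) and the glutamate dehydrogenase gene Glud1 (0.23 ± 0.059, adjusted p = 0.0299). Relative to the db/m mean Slc38a3 was at -0.37 and Slc7a8 at -1.24 in db/db 1. All 7 genes of this list, and 38 of the 50 acid-base genes, were below the db/m mean in that mouse. The share of all genes below it was not counted, so these counts have no background beside them. Of all genes 41.6% had their lowest value of the 10 arrays in db/db 1.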

How the data were processed

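Expression was measured in 10 mice, 1 array each. The deposited table holds log2 levels. The submitters' processing notes name RMA, a method that corrects background, equalises the arrays' distributions and summarises probes, without a version. Each gene had 1 value under its Entrez ID, and how probes were regrouped is unknown here. The 64 control rows were left out. Of 16475 gene rows 15780 had 1 symbol in the supplied annotation, 0 had several and 695 were not listed. All 50 members matched RefSeq by Entrez ID. The 45 array pairs held no copies, since each pair differed by at least 3.07 in some gene.

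Groups were compared as db/db minus db/m with limma 3.58.1 (lmFit, eBayes without trend, two-sided) in R 4.3.3, with p-values adjusted by Benjamini-Hochberg over all gene rows. No filter on dim genes was applied, so every member was tested. Intervals are 95%. No batch is given in the labels or the table. The fit was tested on simulated data. Figures used Python 3.11.15 and matplotlib 3.10.9.

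The members and lists were chosen with earlier results of these data known. Named were members called in either fit, a list of kidney acid-base genes and the largest change in each family; others were named after their values were seen. Alternatives were a replicate block, dim genes (lowest 25%) left out, repeated quantile normalization, median centring, trend and robust eBayes, array weights, and each array left out. Rows named through RefSeq were added after seeing the data.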

Additional observations from a re-analysis of the deposited data

Results flagged for a closer look

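The 25 named genes were looked at in each group of 5 mice. In 13 of these 50 sets of values 1 mouse lay apart from the rest, with a gap to the nearest mouse that took most of the group's range (Dixon's criterion). The usual rate by chance, about 1 in 20, cannot be set against this count, because the sets share the same mice and some genes were named for a call made without db/db 1. In 9 of the 13 the mouse was db/db 1, at the low end. Its levels were 6.51 for Slc4a1 (next 10.02), 9.18 for Rhbg (next 11.11), 10.28 for Rhcg (next 11.64) and 9.08 for Atp6v1b1 (next 10.45). They were 11.66 for Car14 (next 12.98), 12.06 for Car12 (next 12.74), 11.78 for Car4 (next 12.55), 6.46 for Car7 (next 7.33) and 12.52 for Slc4a4 (next 12.92). Car13 was high in db/db 1, at 8.95 (next 6.62). The others were Slc4a3 in db/db 3, at 8.55 (next 7.93), Car13 in db/m 2, at 6.61 (next 6.20), and Car4 in db/m 1, at 12.94 (next 13.05).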

How the results depend on the processing

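With 5 mice a group, and 4 without db/db 1, small changes may go uncalled, and 9 members were dim, below the 25th percentile of levels. Without 1 array in turn, the members called numbered 3 to 11 (11 without db/db 1), the genes called of all genes 490 (without db/m 3) to 2104 (without db/db 1), and the members' median change ran from -0.037 to 0.10. After db/db 1 was left out these ranges were 8 to 12, 1382 to 1940 and 0.081 to 0.12. The mouse number as a replicate block, which the labels do not explain, gave 393 genes called, or 985 without db/db 1, and 2 and 7 members (Atp6v0a2 lost its call in both fits, and Car8, Car15 and Rhcg in the second); same-numbered mice did not deviate together (correlations -0.095 to 0.0060 over 5 pairs), and 0 of the 5 db/db arrays correlated best with the db/m array of the same number. Array weights gave 2641 genes, 12 members (6 higher and 6 lower) and a median of 0.093. With arrays centred on their medians the median was -0.043, the split of all calls was 363 higher and 751 lower beside 488 and 584, or 910 and 1309 beside 1127 and 977 without db/db 1, and Car12, Foxi1, Rhcg, Slc26a4 and Slc4a9, none of them called, turned to -0.045, -0.043, -0.019, -0.014 and -0.014. Array weights turned Atp6v1b1 and Atp6v1c2 to 0.24 and 0.32, and without db/db 1 Slc26a7 turned to -0.041 with centring and -0.055 with weights. Fits that left out 1 array turned the sign of genes uncalled with all arrays (Rhcg and Slc4a1 were called without db/db 1, the upper end of their ranges), over ranges of -0.042 to 0.18 for Car12, -0.17 to 0.21 for Foxi1, -0.073 to 0.37 for Rhcg, -0.066 to 0.31 for Slc26a4, -0.23 to 0.0023 for Slc26a7 (-0.085 to 0.073 after db/db 1 was left out), -0.14 to 0.93 for Slc4a1, -0.063 to 0.18 for Slc4a9, -0.19 to 0.26 for Atp6v1b1 and -0.25 to 0.35 for Atp6v1c2. Of the named genes' changes under settings that kept every array, 129 kept direction and side of the threshold, 10 gained a call and 1 lost it, or 132, 5 and 8 without db/db 1. No gene called in a fit changed sign within it. The causes were not tested.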

Other observations

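Slc4a7, a sodium-bicarbonate cotransporter gene, is outside the probe annotation, was named by its Entrez ID in RefSeq and was looked at after the other values were seen. It read 7.38, 6.97, 7.10, 6.98 and 7.06 in db/db mice 1 to 5, against 6.76, 6.61, 6.84, 6.92 and 6.80 in db/m mice 1 to 5. The groups did not overlap, and the change was 0.31 ± 0.094 (SE, limma adjusted p = 0.0789), or 0.24 ± 0.073 without db/db 1 (adjusted p = 0.0584), so it did not pass the threshold in either fit.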
